A study of Mus musculus with 6 samples.

Results

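The cytosolic ribosomal protein genes were described in lung endothelial cells of 5-day-old (P5) mouse pups. Members were chosen by name alone: gene symbols that start with Rpl or Rps and end in a number, with at most a closing a, x, l or y, together with Rplp0, Rplp1, Rplp2 and Rpsa, and without pseudogene names ending in -ps or the Rps6k kinases. The rule found 82 of the 24951 genes in the deposited counts. They comprise 43 genes of the large subunit, 30 of the small subunit, 3 of the stalk and 6 paralogs whose names end in l. Of the 82, 80 had at least 1 count and 77 passed the filter on low counts. The gene models of 2 paralogs, Rps4l and Rpl32l, are annotated as processed pseudogenes in GENCODE.

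The mutant pups were Smad4 f/f;Cdh5-CreERT2, that is, homozygous for a floxed Smad4 allele and carrying a tamoxifen-inducible Cre recombinase driven by the promoter of Cdh5, a gene of endothelial cells. The control pups were Smad4 f/f without Cre, labelled Wildtype, so both groups share the floxed allele and no group has Cre with an intact Smad4 gene. There were 3 mutant and 3 control libraries of polyadenylated RNA from cells that bound beads coated with antibody to CD31, an endothelial surface protein. The dose and day of tamoxifen are not given in the labels, one sentence of the protocol names the mice HHTf/f and HHTiECKO, and all column names share a tag, lit14, that the labels do not explain. Smad4, the SMAD shared by BMP and TGF-beta signalling, fell to 88.8, 72.9 and 94.2 CPM, that is, counts scaled to a common library size, in mutant libraries, against 188, 177 and 181 CPM in control libraries (edgeR log2 fold change −1.09, SE 0.10, adjusted p = 0.000604). Assigned reads came to 16041786 to 20172318 in mutant and 14093564 to 21113926 in control libraries.

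The cytosolic ribosome is built from a small subunit, which reads the mRNA, and a large subunit, which joins amino acids. Each holds ribosomal RNA and one copy of most of its proteins, so cells make these proteins in matched amounts. Their mRNAs are short and abundant, and many begin with a run of pyrimidines at the 5′ end, the terminal oligopyrimidine (TOP) motif, through which mTOR and LARP1 control their translation.

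To show that start, bases from 15 before to 15 after the annotated transcription start are given for members on both sides of the motif search, from RefSeq sequences on GRCm38.p6. Capitals mark a run of at least 5 pyrimidines that opens with C within 5 bases of the start, read on the sense strand only. Rps6, the substrate of the S6 kinases, lies at chr4:86857353-86857382 on the minus strand, Rplp2 of the stalk at chr7:141447636-141447665 on the plus strand, Rpl31 at chr1:39367836-39367865 on the plus strand and Rps27l at chr9:66946071-66946100 on the plus strand. Those without such a run are Rpl3l at chr17:24727811-24727840, Rpl5 at chr5:107900513-107900542 and Rpsa at chr9:120127751-120127780, all on the plus strand.
Rps6: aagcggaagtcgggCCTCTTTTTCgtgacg
Rplp2: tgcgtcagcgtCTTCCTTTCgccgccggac
Rpl31: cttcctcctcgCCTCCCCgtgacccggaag
Rps27l: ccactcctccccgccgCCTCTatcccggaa
Rpl3l: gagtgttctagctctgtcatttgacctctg
Rpl5: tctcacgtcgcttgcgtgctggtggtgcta
Rpsa: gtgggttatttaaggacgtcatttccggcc
The run was longest in Rps6, at 10 bases, among the 4 shown with one. Rpl3l has a second annotated start, without a run, as has Rps27l.

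Promoter sequences were matched for 61 of the 82 members, and 29 of them (47.5%) held such a run, against 5718 of 27025 genes with a promoter (21.2%) and 17 of 69 mitochondrial ribosomal protein genes (24.6%). The E-box CACGTG, searched on both strands of windows from 250 bases before to 50 after the start, was in 6 of 61 members (9.84%) and 8.09% of all promoters. The SMAD palindrome GTCTAGAC was in 0 of 61 members and 0.248% of all promoters. Among tested members with a promoter, 28 had a run, with a median log2 fold change of 0.22. The 29 without one had a median of 0.23. The search read annotated starts only, and some members held a run at only some of their annotated starts. Whether members without a run at these starts carry the TOP motif was not tested. The split therefore cannot compare TOP members with others.

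The summed counts of the 82 members were a larger share of assigned counts in every mutant library than in any control library. The share was 1.95%, 2.08% and 1.86% in mutant libraries, against 1.74%, 1.64% and 1.68% in control libraries. Means were 1.96% ± 0.115 in mutant and 1.69% ± 0.0484 in control libraries (SD, n = 3 each), a 1.16-fold ratio. The two-sided exact permutation test over the 6 libraries gave p = 0.10, which is the smallest p that 3 against 3 allows. Counting error alone was far smaller, with a 95% exact binomial (Clopper-Pearson) interval no wider than ± 0.00699 points around any library's share. In bulk samples such as these, fewer cells of a type and less RNA per cell cannot be told apart.

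**Figure D1:**
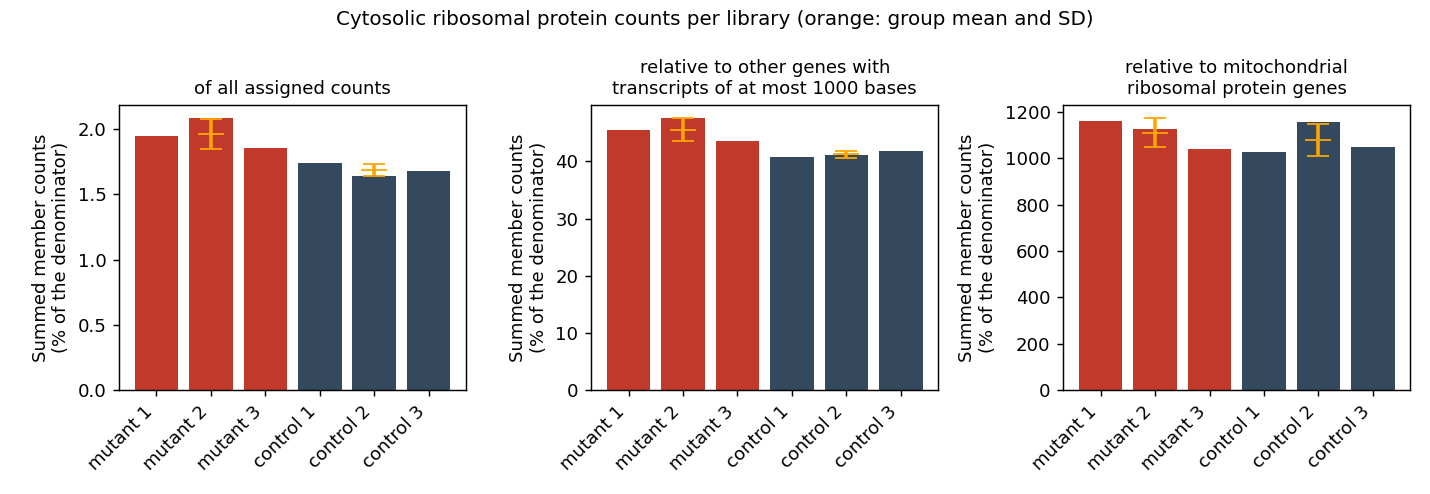
Summed counts of the cytosolic ribosomal protein genes in each library as a percentage of 3 denominators, with mutant bars in red, control bars in dark blue and the group mean and SD in orange. The groups do not overlap in the left and middle panels and overlap in the right panel, where the denominator is the mitochondrial ribosomal protein genes.

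The direction did not rest on a few abundant members. The 10 most counted members held 27.3% of member counts, and without them the log2 ratio of the share was 0.22, the same as with them. Adding 7 pseudogenes, which had 224, 158 and 210 counts in mutant and 199, 95 and 185 counts in control libraries, also gave 0.22. With the denominator restricted to other genes with transcripts of at most 1000 bases, the log2 ratio was 0.14 and the groups still did not overlap. Relative to the mitochondrial ribosomal protein genes it was 0.04 and the groups overlapped (two-sided exact permutation p = 0.70). Both of these denominators were chosen after the values were seen.

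Member by member, the differences were small and in one direction, and 1 of 77 passed the test. All 77 tested members had a log2 fold change above 0 (of all genes tested, 49.5% did), and 0 had one below 0 (50.5%). Mutant and control CPM values did not overlap, with mutant higher, for 64 members (11.6% of all genes), and with mutant lower for 0 (9.04%). At an unadjusted p under 0.05, 52 members were higher in mutant libraries (7.55% of all genes) and 0 lower (6.48%). After adjustment over all 14934 genes tested, 1 member was called higher (1.93% of all genes) and 0 lower (1.34%). The 77 values come from the same 6 libraries and are not independent of each other. With 1 library left out, the count of 52 was 23 (mutant replicate 1), 20 (mutant replicate 2), 23 (control replicate 2) or 27 (control replicate 3). It was 39 without control replicate 1 and 68 without mutant replicate 3.

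The median log2 fold change was 0.22, or 1.17-fold, over the 77 members, against −0.0024 over all genes tested. Quartiles over members were 0.19 and 0.25, and 69 of the 77 lay between 0.1 and 0.35, a range that held 23.2% of all genes. All 77 stayed above 0 with DESeq2-type size factors, with upper-quartile factors, without scaling and with factors computed without the members. Apart from Rpl3l, the smallest adjusted p was 0.127, for Rpsa.

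**Figure D2:**
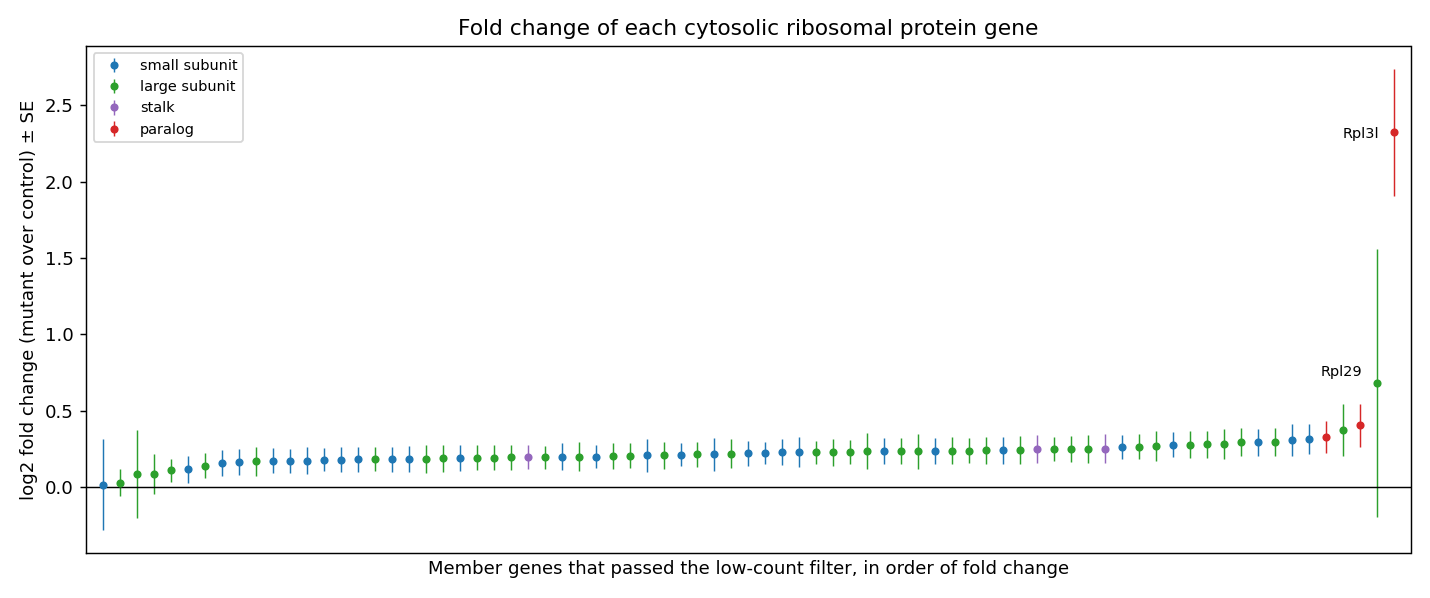
Log2 fold change (mutant over control) with its SE for the 77 tested members in rising order, coloured by their place in the ribosome, with Rpl3l and Rpl29 named. Most members lie close to the median of 0.22, and Rpl3l stands at 2.32 and Rpl29 at 0.68 with a wide error.

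The 30 small subunit genes had a median log2 fold change of 0.20, and 24 of them did not overlap between groups, with mutant higher (11.6% of all genes). Rpsa, a small subunit protein also known as the laminin receptor, was at 576, 597 and 553 CPM in mutant libraries and 487, 444 and 495 CPM in control libraries. The log2 fold change of Rpsa was 0.28 (SE 0.08). The highest small subunit value was 0.32, for Rps7, at 303, 323 and 253 CPM in mutant and 242, 227 and 236 CPM in control libraries.

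Rps6, the small subunit protein that the S6 kinases phosphorylate, was at 338, 376 and 315 CPM in mutant libraries and 306, 307 and 305 CPM in control libraries. Control libraries lay within 2 CPM of each other, and mutant replicate 2 was the highest library. The log2 fold change of Rps6 was 0.16 (SE 0.09, adjusted p = 0.445). Among the 10 tested genes of the S6 kinase families, 1 was called: Rps6ka2 was at 176, 182 and 161 CPM in mutant and 116, 121 and 132 CPM in control libraries, with a log2 fold change of 0.49 (SE 0.09, adjusted p = 0.0123). That call was lost without mutant replicate 1, without mutant replicate 2 or without control replicate 2. Rps6kb1, the main S6 kinase gene, was at 71.0, 63.0 and 76.1 CPM in mutant and 70.1, 77.5 and 75.1 CPM in control libraries.

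The 41 tested large subunit genes had a median log2 fold change of 0.23, and 34 did not overlap, with mutant higher (11.6% of all genes). The members with the highest counts were Rpl4, Rplp0 and Rpl3. Rpl4, which lines the peptide exit tunnel, was at 722, 774 and 662 CPM in mutant and 622, 591 and 620 CPM in control libraries. Rpl3, a protein near the peptidyl transferase centre, was at 594, 681 and 609 CPM in mutant and 541, 561 and 493 CPM in control libraries. Their log2 fold changes were 0.24 for each, with adjusted p-values of 0.227 for Rpl4 and 0.246 for Rpl3.

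The stalk of the large subunit, which recruits the elongation factors, had a median of 0.25 over its 3 genes. None of the 3 overlapped between groups, with mutant higher (11.6% of all genes). Rplp0, its base, was at 695, 764 and 640 CPM in mutant and 617, 578 and 570 CPM in control libraries. Rplp1 was at 252, 245 and 226 CPM in mutant and 205, 212 and 215 CPM in control libraries. Rplp2 was at 153, 181 and 147 CPM in mutant and 137, 130 and 138 CPM in control libraries. Log2 fold changes were 0.25 for Rplp0, 0.20 for Rplp1 and 0.25 for Rplp2, and the smallest of the 3 adjusted p-values was 0.224.

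Rpl5 and Rpl11, large subunit proteins that bind and inhibit MDM2 when they are free of ribosomes, were both higher in every mutant library than in any control library, with neither called. Rpl5 was at 423, 412 and 375 CPM in mutant and 356, 337 and 356 CPM in control libraries (log2 fold change 0.21, adjusted p = 0.282). Rpl11 was at 251, 274 and 227 CPM in mutant and 211, 200 and 209 CPM in control libraries (log2 fold change 0.28, adjusted p = 0.164). A list of 16 MDM2 and p53 pathway genes was drawn up with earlier results of these libraries known. It is therefore not independent evidence of its direction. The list had 6 genes called higher (1.93% of all genes) and 0 lower (1.34%), with a median log2 fold change of 0.44. With 1 library left out the number called was 4, except for 7 without mutant replicate 3. Mdm2 itself was at 111, 123 and 104 CPM in mutant and 95.7, 118 and 108 CPM in control libraries, and the groups overlapped. The 4 called genes of the list with the smallest p were Eda2r (2.69), Zmat3 (0.92), Ccng1 (0.63) and Aen (0.66), given with their log2 fold changes.

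Of the 4 members on the X chromosome, the median log2 fold change was 0.18. Rpl10 was at 420, 432 and 393 CPM in mutant and 370, 369 and 359 CPM in control libraries. Rps4x was at 555, 548 and 500 CPM in mutant and 496, 457 and 463 CPM in control libraries. Rpl36a was at 126, 138 and 114 CPM in mutant and 109, 104 and 107 CPM in control libraries. In these 3 the groups did not overlap, with mutant higher (11.6% of all genes), while in the other X-linked member, Rpl39, they did.

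Rpl3l, the paralog of Rpl3 that is known from heart and skeletal muscle, was the member called, at a very low level. It had 19, 28 and 22 counts in mutant libraries and 4, 4 and 6 counts in control libraries, or 1.04, 1.76 and 1.07 CPM in mutant and 0.187, 0.285 and 0.289 CPM in control libraries. Its log2 fold change was 2.32 (SE 0.41, edgeR adjusted p = 0.0133), with the lowest mutant library above every control library. It passed the low-count filter only through the mutant libraries, since 3 mutant and 0 control libraries reached the 0.517 CPM (by unscaled library totals) that the filter asks for, so its passing already favoured a difference. Without that filter its adjusted p was 0.00505. Without mutant replicate 2 the log2 fold change was 2.05 and the adjusted p 0.0771, so that the call was lost, and over all other alternatives the adjusted p ran from 0.00505 to 0.0492. The gene lies at chr17:24727820-24736143 on the plus strand (GRCm38), in 10 exons, and 0 of its 50-base windows occur in another gene. Rps2, its nearest fellow member at 5891 bases, had a log2 fold change of 0.26, and Msrb1, 499 bases downstream, had 0.09. Across 18 genes of heart and skeletal muscle, listed after the values were seen, summed CPM was 61.2, 75.7 and 58.9 in mutant and 69.6, 81.9 and 53.3 in control libraries. These sums overlapped between groups. Myh7 was their largest part, at 27.4, 28.8 and 21.9 CPM in mutant and 40.3, 37.8 and 14.8 CPM in control libraries. Single genes went both ways. Myl4 did not overlap with mutant higher (log2 fold change 0.49, edgeR adjusted p = 0.237). Pln did not overlap with mutant lower (−0.43, edgeR adjusted p = 0.691). The part of muscle genes in the Rpl3l result was not tested.

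Rps27l, a paralog of Rps27 that is a p53 target in human cells, was at 42.7, 39.6 and 42.3 CPM in mutant libraries and 34.2, 29.6 and 35.5 CPM in control libraries. Its log2 fold change was 0.33 (SE 0.10, adjusted p = 0.160). Rps4l, the processed copy of Rps4x, was at 29.5, 26.7 and 27.9 CPM in mutant and 25.8, 19.0 and 18.7 CPM in control libraries (log2 fold change 0.40, adjusted p = 0.21). It was called without control replicate 1 (adjusted p = 0.0408). The other paralogs did not reach the filter: Rpl32l had 10, 12 and 10 counts in mutant and 7, 4 and 8 in control libraries, and Rpl39l had 1, 0 and 4 counts in mutant and 3, 1 and 5 in control libraries. Rpl10l, a paralog known from testis, had 0 counts in all 6 libraries, which allows up to 0.146 to 0.188 CPM in mutant and 0.140 to 0.214 CPM in control libraries (3 counts per library).

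**Figure D3:**
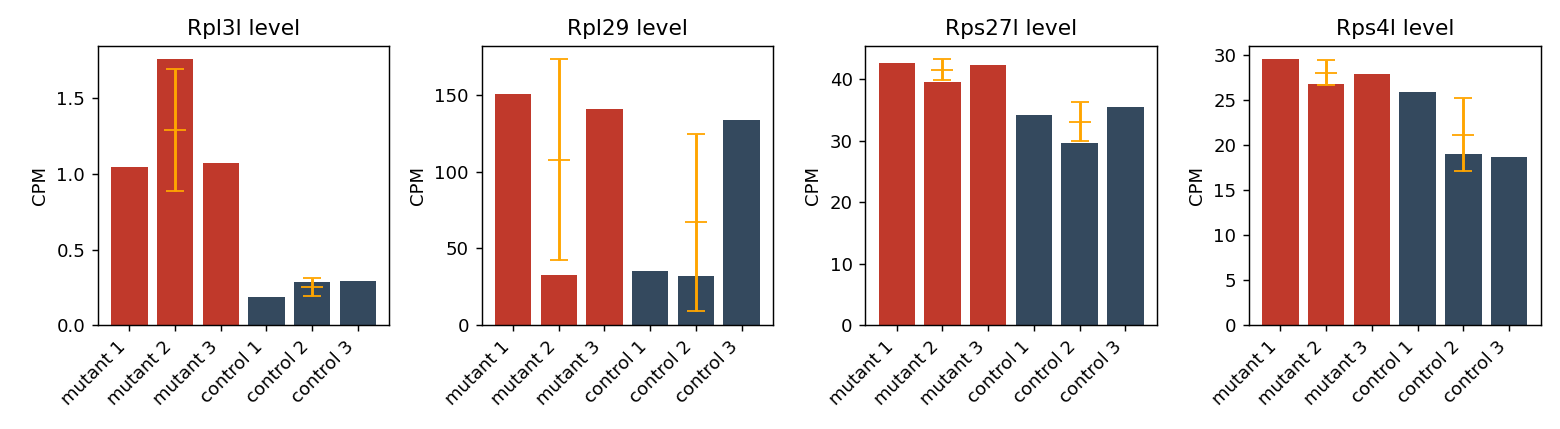
CPM of Rpl3l, Rpl29, Rps27l and Rps4l in each library, with mutant bars in red, control bars in dark blue and the group mean and SD in orange. Rpl3l separates the groups at a low level, whereas Rpl29 is at 134 CPM or more in 3 libraries and at 35.5 CPM or less in the other 3.

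Rpl29, a large subunit protein, departed from all other members. It was at 150, 32.7 and 141 CPM in mutant libraries and 35.5, 32.0 and 134 CPM in control libraries. The libraries fell into 2 levels that cut across the groups, and the highest was 4.69-fold above the lowest. The log2 fold change of 0.68 had an SE of 0.88 (adjusted p = 0.793). Of the 10 genes whose log2 CPM followed Rpl29 most closely over the 6 libraries, with Pearson r of 0.96 to 0.99 as a description, none varied more than 1.41-fold. Its 7 neighbours within 50000 bases all overlapped between groups. Of the 50-base windows of its transcript, 78.5% also occur in 84 other genes, and Rpl7a had 81.2% in 123 other genes. The part of shared windows in the 2 levels of Rpl29 was not tested. Without Rpl29 the log2 ratio of the share of member counts was 0.214, against 0.216 with it.

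The highest members after Rpl29, at a mean log2 CPM of 5 or more, were Rpl36 and Rps27l. Rpl36, a large subunit protein, was at 94.0, 142 and 85.9 CPM in mutant and 84.2, 81.1 and 82.8 CPM in control libraries. Mutant replicate 2 stood alone there, and the log2 fold change of 0.37 had an adjusted p of 0.39. At the low end were 3 other large subunit genes. Rpl39 was at 111, 94.7 and 98.6 CPM in mutant and 98.3, 98.5 and 101 CPM in control libraries, with a log2 fold change of 0.03. Rpl21 was at 271, 313 and 209 CPM in mutant and 259, 244 and 245 CPM in control libraries, with 0.09. Rpl31 was at 231, 224 and 216 CPM in mutant and 210, 205 and 206 CPM in control libraries, with 0.11. The groups overlapped for Rpl39 and Rpl21 and did not for Rpl31.

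Within a library the members lay close together. Relative to the mean of the controls, the median member was at log2 0.23, 0.32 and 0.11 in mutant libraries, and at 0.03, −0.03 and 0.01 in control libraries. Of 77 members, 75, 75 and 73 were above that mean in mutant libraries and 60, 19 and 45 in control libraries. Mutant replicate 3 lay nearest to the controls. Among the 73 members with a mean log2 CPM of 5 or more, 11 of 438 values, from 6 genes, lay more than 0.25 from their library's median, and 6 of those were Rpl29. The others were Rpl36, Rpl39 and Rps13 in mutant replicate 2, and Rpl21 and Rps27l in mutant replicate 3. Without Rpl3l and Rpl29 the SD of the log2 fold changes over 72 such members was 0.05.

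**Figure D4:**
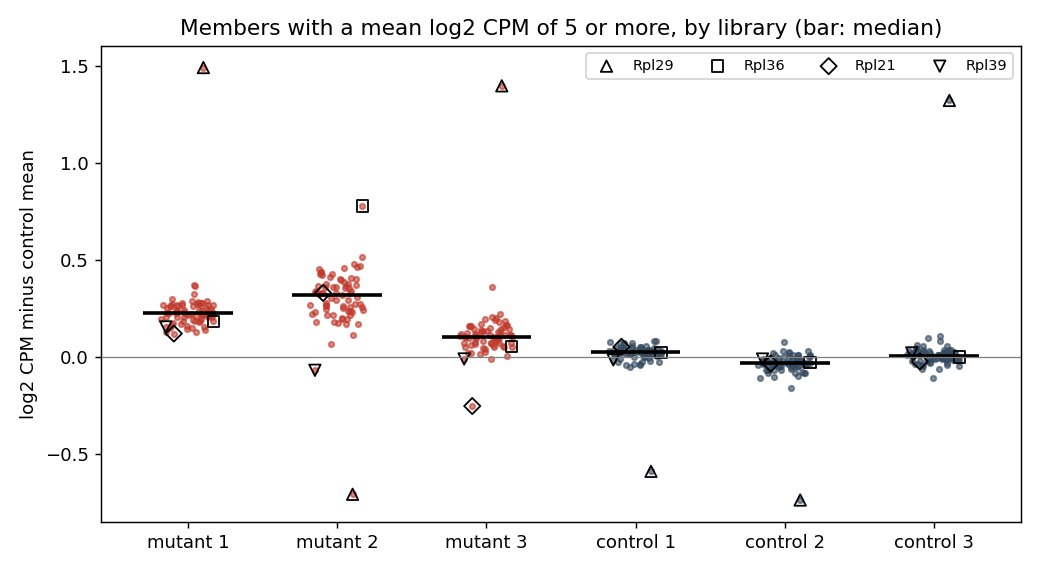
Log2 CPM minus the control mean for the 73 members with a mean log2 CPM of 5 or more, by library, with the median as a bar and Rpl29, Rpl36, Rpl21 and Rpl39 marked. Medians are 0.23, 0.32 and 0.11 in mutant and near 0 in control libraries, and Rpl29 lies far from the rest in all 6 libraries.

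Several members were nearly absent from the counts although every cell uses them. Rpl26 had 0 counts in all 6 libraries, Rpl30 had 3, 4 and 6 counts in mutant and 3, 1 and 4 in control libraries, and Rps27 had 42, 51 and 50 counts in mutant and 36, 47 and 60 in control libraries. Rpl34 had 36, 39 and 51 counts in mutant and 31, 37 and 52 in control libraries. Of their 50-base windows, 98.7% for Rps27, 76.4% for Rpl30, 71.3% for Rpl26 and 50.6% for Rpl34 occur in other genes. Among well-counted members, the share was 92.1% for Rpl10 and 93.8% for Rpl5. For Rpl5, 46.6% of transcript bases lie in exons of an overlapping gene, Fam69a. The cause of the low counts was not tested, and these values were taken as uncertain and not as levels of the genes. Among the members at a mean log2 CPM of 5 or more, levels per kilobase of transcript in control libraries ran from 57.7 CPM per kb for Rps20 to 527 CPM per kb for Rpl41, with a median of 286. The low place of Rps20, whose control mean was 214 CPM, depends on the transcript chosen. At 3706 bases it was the longest among tested members. Over 72 such members, without Rpl29, Spearman's rho of the log2 fold change across genes was 0.25 with transcript length, 0.16 with GC content and −0.05 with the share of windows found elsewhere, given as descriptions over values from the same libraries.

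Transcript lengths and fold changes of other genes were set beside those of the members. Tested members had a median transcript of 751 bases, with 59 of 77 at 1000 bases or less, and all genes had a median of 2738. Among genes outside the members with a mean log2 CPM of 5 or more, the median log2 fold change was 0.09 at up to 500 bases (24 genes), 0.14 at 500 to 1000 (271), 0.07 at 1000 to 2000 (1146), 0.02 at 2000 to 4000 (2626) and −0.06 above 4000 (2558). In the 500 to 1000 base range, 24.7% of genes did not overlap with mutant higher (11.6% of all genes). All of these medians lie below the 0.22 of the members. The part of transcript length in the members' difference was not tested.

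**Figure D5:**
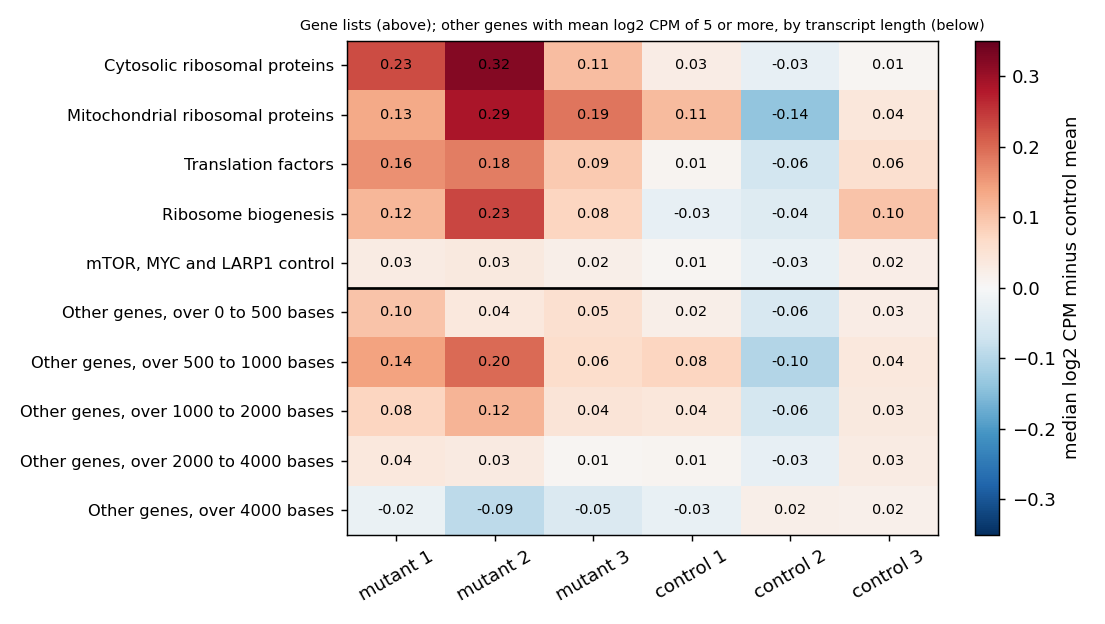
Median log2 CPM minus the control mean in each library, for gene lists in the upper rows and for other genes by transcript length in the lower rows, with red above and blue below the control mean. The cytosolic and mitochondrial ribosomal proteins are highest in mutant replicate 2, at 0.32 and 0.29, and other genes of 500 to 1000 bases are highest there too, at 0.20.

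Ribosome genes that the name pattern leaves out gave values like those of the members. All 6 tested of 7, among them Rps3a1, Rack1 and Fau, were higher in every mutant library than in any control library (11.6% of all genes). Their median log2 fold change was 0.20, with 0 called. Rps3a1, the small subunit protein with the smallest p among them, was at 459, 475 and 418 CPM in mutant and 384, 383 and 372 CPM in control libraries (adjusted p = 0.179). The 50 tested initiation, elongation and termination factors had a median of 0.16, with 42 above 0, 20 not overlapping with mutant higher (11.6% of all genes), and 0 called. Eef2k, the kinase that inhibits elongation factor 2, had the smallest p among them, at 22.2, 26.1 and 26.0 CPM in mutant and 36.6, 31.5 and 31.2 CPM in control libraries (log2 fold change −0.42, adjusted p = 0.0968).

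The 90 tested ribosome biogenesis genes had a median of 0.13, with 76 above 0, 25 not overlapping with mutant higher (11.6% of all genes), and 0 called. Nhp2, a protein of box H/ACA particles that guide pseudouridylation of ribosomal RNA, was at 29.04, 32.5 and 27.4 CPM in mutant and 22.1, 18.9 and 24.4 CPM in control libraries (adjusted p = 0.112). Of 14 chaperones and import factors of ribosomal proteins, 13 were above 0, with a median of 0.10 and 0 called, and of 10 further genes known for TOP transcripts or for ribosome binding 6 were above 0, with a median of 0.13 and 0 called. The 78 mitochondrial ribosomal protein genes, which serve another ribosome, had a median of 0.19, with 72 above 0, 24 not overlapping with mutant higher (11.6% of all genes), and 0 called. Their median member was at log2 0.13, 0.29 and 0.19 in mutant and 0.11, −0.14 and 0.04 in control libraries, so control replicate 1 lay close to mutant replicate 1. None of the 11 quality control, 19 secretory and 23 cell division genes tested was called, and their medians were −0.05, 0.08 and 0.08. On all of these lists from the ribosome genes outside the pattern onward, edgeR, DESeq2 and limma-voom each called 0. At an unadjusted edgeR p under 0.05 there were 3 ribosome genes outside the pattern, 12 translation factors, 10 biogenesis genes, 2 chaperones and import factors, 2 of the further 10, 13 mitochondrial ribosomal protein genes, 2 quality control, 1 secretory and 0 cell division genes. All were higher in mutant libraries except 1 translation factor. Of all genes tested, 7.55% were higher and 6.48% lower at that p.

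Among the 38 regulators of growth, of the mTOR, MYC and LARP1 kind, edgeR called 0, with 4 at an unadjusted p under 0.05, and the median was 0.03. Of those 4, 3 were higher (7.55% of all genes) and 1 lower (6.48%). DESeq2 called 1, as did edgeR without control replicate 3. Myc, a transcription factor that drives ribosome synthesis, was at 64.8, 65.5 and 63.4 CPM in mutant libraries and 34.9, 42.2 and 56.4 CPM in control libraries. Its log2 fold change was 0.54 (SE 0.16, adjusted p = 0.127), and control replicate 3 lay nearest to the mutants. Larp1, the TOP mRNA binding protein, was at 155, 159 and 153 CPM in mutant and 149, 145 and 150 CPM in control libraries. Mtor was at 87.2, 93.5 and 94.2 CPM in mutant and 92.7, 98.1 and 98.0 CPM in control libraries.

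Markers of the cells themselves and of others were set beside these values. All 18 endothelial markers were detected and passed the filter, and their summed CPM was 13553 to 13755 in mutant and 13588 to 15052 in control libraries. Of these, Tek, Calcrl and Sox17 were called lower and Robo4 higher, a count of 4 that was 0 to 2 when any library other than mutant replicate 3 was left out. All 13 lymphocyte markers were detected, and their summed CPM was 215 to 287 in mutant and 190 to 209 in control libraries, the one list of other cells whose sums did not overlap with mutant higher. Of its 12 tested markers, 4 had a log2 fold change above 0, and the median was −0.17. Cd79a, Cd79b and Ms4a1, genes of B cells, were among those 4 and were higher in every mutant library, with adjusted p-values of 0.0959 to 0.107. The sums of 14 fibroblast markers were 1808 to 2642 CPM in mutant and 1476 to 2265 in control libraries, and those of 14 smooth muscle and pericyte markers were 1563 to 1836 in mutant and 1403 to 1570 in control libraries. Of the fibroblast markers 13 of 14 were above 0, with a median log2 fold change of 0.20, and of the smooth muscle and pericyte markers 10 of 14, with a median of 0.17. Macrophage, neutrophil, epithelial, platelet, mesothelial and erythroid sums also overlapped. Of 11 erythroid markers matched, 3 passed the filter and 6, all globin genes, were at 0 in all libraries. The cause of these zeros was not tested, and they were taken as uncertain and not as absence of the RNA. With edgeR 0 markers of any other cell type were called, and at an unadjusted p under 0.05 there were 3 lymphocyte, 2 erythroid, 1 fibroblast, 1 smooth muscle or pericyte and 1 macrophage markers. Of all genes tested, 7.55% were higher and 6.48% lower at that p. DESeq2 called 1 smooth muscle or pericyte and 1 lymphocyte marker, and limma-voom 0. With a library left out, edgeR called 2 epithelial markers (without control replicate 3), 2 macrophage markers (without mutant replicate 1), 1 lymphocyte marker (without mutant replicate 2) and 1 platelet marker (without control replicate 1). The part of these cells in the ribosomal protein difference was not tested.

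The genes outside the members whose log2 CPM followed the median member most closely over the 6 libraries, among 6646 ranked, were Tes, Csrp1, Nectin2, Ppp1r13b and Rin3, with Pearson r of 0.993 to 0.997, given as a description. Tes was at 98.0, 105 and 82.9 CPM in mutant and 73.3, 70.9 and 73.8 CPM in control libraries. The median member itself separated the groups. It was at log2 CPM 7.97, 8.01 and 7.83 in mutant and 7.72, 7.72 and 7.73 in control libraries. Genes picked for following it would therefore separate them too, and in all 5 the groups did not overlap. Nectin2 was the one called (log2 fold change 0.51, edgeR adjusted p = 0.0366), which the same choice favoured.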

How the data were processed

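The authors deposited raw counts per gene, as whole numbers for each library and as a table of all libraries, and 0 values differed between the 2 forms. Per the submitters' processing notes the build was mm10 and DESeq2 was used, with no version or role. Of aligner, counter, annotation and strand setting, each is not given in the sources used here. Reads with no feature (53.9% to 58.2% of a library) and ambiguous reads (0.288% to 0.366%) were left out of library sizes. Reads with no feature were 55.2%, 53.9% and 55.3% in mutant and 54.8%, 58.2% and 56.0% in control libraries, and the groups overlapped. Ambiguous reads were 0.323%, 0.366% and 0.346% in mutant and 0.315%, 0.288% and 0.292% in control libraries, and the groups did not overlap. The part of these reads in the share of member counts was not tested.

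Counts were filtered with filterByExpr, scaled by TMM and tested in R 4.3.3 with edgeR 4.0.16 (robust quasi-likelihood F test, two-sided, mutant over control, no covariate). Benjamini-Hochberg adjustment ran over all 14934 genes, with calls at an adjusted p below 0.05. CPM used the scaled library sizes. SEs were taken from the fold change and its F statistic (log2 fold change over root F). The fit was also run on simulated counts, drawn gene by gene with planted fold changes. That simulation held no small shift shared by many genes, so it cannot speak to the members' difference. Alternatives used DESeq2 1.42.0, limma 3.58.1 (voom), other scalings, no filter, a replicate block and each library left out. The share of member counts was tested by an exact permutation of libraries. Replicates of a group differed by more than sampling noise (chi-square per degree of freedom at least 12.3), and p-values measure the spread between these samples, which the labels call independent biological samples.

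GENCODE M21 (GRCm38, the same sequence as mm10) gave coordinates, transcripts and exons by gene symbol. One transcript a gene was used, the shortest complete principal one, and a 50-base window was shared where its sequence occurs in a transcript of another gene. Promoter sequences are from RefSeq (GRCm38.p6). Of 417 listed symbols, 413 matched. The members and lists were chosen with earlier results of these data known. Genes given in every library were the called members, the 3 highest and 3 lowest by fold change, the 3 with the most counts, the paralogs, X-linked and stalk members, Rpl5, Rpl11 and Rps6, and from each other list the called genes (at most 4) or the gene with the smallest p. Rps7, Rpsa, Rps6kb1, Mdm2, Larp1, Mtor, the nearly uncounted members and the genes of muscle were added after their values were seen.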

Additional observations from a re-analysis of the deposited data

How the results depend on the processing

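The log2 ratio of the ribosomal protein share stayed above 0 under all alternatives run, between 0.04 and 0.27, and between 0.17 and 0.26 when a library was left out. Of the alternatives, the ones without Rpl29 and with the short-transcript or mitochondrial denominators were chosen after seeing the data. The number of members called was 1 with each scaling, without the filter, with DESeq2 and with limma-voom, and ran from 0 to 2 when a library was left out. Over all genes, 488 were called (288 higher, 200 lower), 748 with DESeq2, and 211 to 428 when a library was left out. The lowest of these counts came without mutant replicate 2. Single members changed sign in 5 cases, over 3 of the alternatives that left out a library: Rps27 to −0.14 without mutant replicate 2 and −0.23 without control replicate 1, Rpl34 to −0.15 without control replicate 1, Rpl21 to −0.053 without mutant replicate 2, and Rpl39 to −0.042 without mutant replicate 1. Over all left-out libraries, Rps27 reached 0.21, Rpl21 0.23 and Rpl39 0.076. The cause was not tested.

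Both groups carry replicate numbers 1 to 3. Deviations of same-numbered libraries correlated at −0.01, 0.02 and 0.16, against −0.154 to 0.119 for other pairs. Values this weak cannot show whether same-numbered libraries share more than the number. With the replicate number as a block, 466 genes and 1 member were called, 1 fibroblast and 1 lymphocyte marker were called as well, 37 members had an unadjusted p under 0.05, and the mean paired log2 difference of the share was 0.22 (exact sign-flip permutation p = 0.25, the smallest that 3 pairs allow).

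Depth limited Rpl3l, with 4 to 28 counts a library, and the members at or near 0 counts.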

Other observations

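Log2 fold changes ran from 0.02 to 0.33 over the 28 members with a pyrimidine run at an annotated start. They ran from 0.16 to 2.32 over the 29 without one there, where Rpl3l was the highest. Members lay on 19 chromosomes.

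Within the p53 list, Phlda3 and Bbc3 were also called, with log2 fold changes of 0.50 and 0.70. Phlda3, an inhibitor of AKT, was at 52.3, 58.3 and 47.0 CPM in mutant and 36.8, 35.9 and 38.4 CPM in control libraries (adjusted p = 0.0297). Bbc3, which encodes the death factor PUMA, was at 59.3, 62.7 and 43.4 CPM in mutant and 29.4, 36.8 and 35.5 CPM in control libraries (adjusted p = 0.0343).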
